A study of Mus musculus with 6 samples.

Results

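Cytochrome P450 (CYP) genes were followed in the livers of mice given LPS alone or LPS with GalN. Every array target whose description contained the words cytochrome P450 was taken, without P450 oxidoreductase, and of several targets for a gene the one with the highest mean over the 6 arrays was kept. This gave 91 gene names from 114 targets, out of 37032 features joined from 44170 targets. CYP family 1 held 3 of them, family 2 held 42, family 3 held 8, family 4 held 18 and all other families together 20. A Cyp symbol could be given to 88, and the other 3 are named by their descriptions. RefSeq classes 4 of the 91 as pseudogenes (Cyp2c53-ps, Cyp2d13, Cyp2j7 and Cyp4a30-ps), and Cyp2c23 is called Cyp2c44 on the array. Names were counted, not loci. In the files' mm9 spans, the target described as similar to P450PB-1 lies on Cyp2r1, the one similar to rat P450 2D3 on Cyp2d13, and Cyp4a31 on Cyp4a10, so the 91 names fill 88 separate loci and the counts below hold 3 loci under 2 names each.

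The livers came from 6 wild-type C57 BL/6 males aged 9 to 10 weeks. A dose of 0.01 µg LPS (lipopolysaccharide, a bacterial cell wall component) was given to 3 mice, and 3 others received that dose together with 20 mg GalN (D-galactosamine, an amino sugar that is taken up by hepatocytes and depletes their uridine nucleotides). Tissue was taken after 2.5 h in both groups, and per the labels each replicate came from a separate treatment. Both groups received LPS, and neither untreated mice nor mice given GalN alone were analysed here. Every difference below therefore compares livers after LPS with GalN to livers after LPS alone. The livers also differed in transcripts of other tissues, as described below. Levels are log2 RMA intensities of total RNA on a single-colour NimbleGen array, so a difference of 1 is a doubling. Differences are LPS/GalN minus LPS with their standard error, and a gene was called when limma's adjusted p over all 37032 features was under 0.05.

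P450 enzymes are heme proteins of the endoplasmic reticulum and mitochondria that insert an oxygen atom into their substrate with electrons from P450 oxidoreductase or adrenodoxin. In liver, families 1 to 3 mainly oxidise drugs, toxins, steroids and arachidonic acid, family 4 mainly hydroxylates the end of fatty acid chains, and other families make bile acids, sterols and steroid hormones or clear retinoic acid. Many of these genes are driven by nuclear receptors and liver-enriched transcription factors, and inflammatory signals are known to lower many of them.

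The tissue carried hepatocyte transcripts throughout. All 14 listed hepatocyte markers were found and lay above the background of random probes, with a summed intensity of 513200 to 593300. A set of 23 intestine markers set LPS mice 1 and 2 apart, with sums of 54600 and 59720, against 8820 in LPS mouse 3 and 6456 to 7208 in the LPS/GalN mice. Thymus and T cell markers (13 genes) set LPS/GalN mice 2 and 3 apart, with 18700 and 11170 against 684.1 to 1037 in the other 4 mice. Of the intestine markers, 5 to 7 lay near background on each of the 4 other arrays and 0 on those of LPS mice 1 and 2. Of the thymus markers, 3 or 4 lay near background on each of the 4 other arrays and 0 on those of LPS/GalN mice 2 and 3. Markers of kidney (10 genes) and exocrine pancreas (9) summed to between 305.3 and 492.3, and 7 adrenal markers to 919.3 and 1036 in LPS mice 1 and 2 against 249.5 to 327.7 in the others. That adrenal excess lay mainly in Akr1b7 (8.34 and 6.80 in LPS mice 1 and 2), Chga (7.335 and 7.28) and Chgb (7.73 and 8.75). Star, Nr5a1 and Th read only 4.585 to 5.64 over the 6 arrays, and Pnmt overlapped (6.70 and 7.93 against 5.39 to 7.27). Between groups, the median difference was -0.13 for the hepatocyte markers with 0 called and 0.84 for 7 Kupffer cell markers with 0 called. It was 1.09 for 8 sinusoidal endothelial markers with 3 called higher, where 0.616% of all features were. The part of these marker differences in the P450 results was not tested. Nor was that of the intestine and thymus transcripts, and P450 results that rest on the libraries high in them are given below with and without those libraries.

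**Figure D1:**
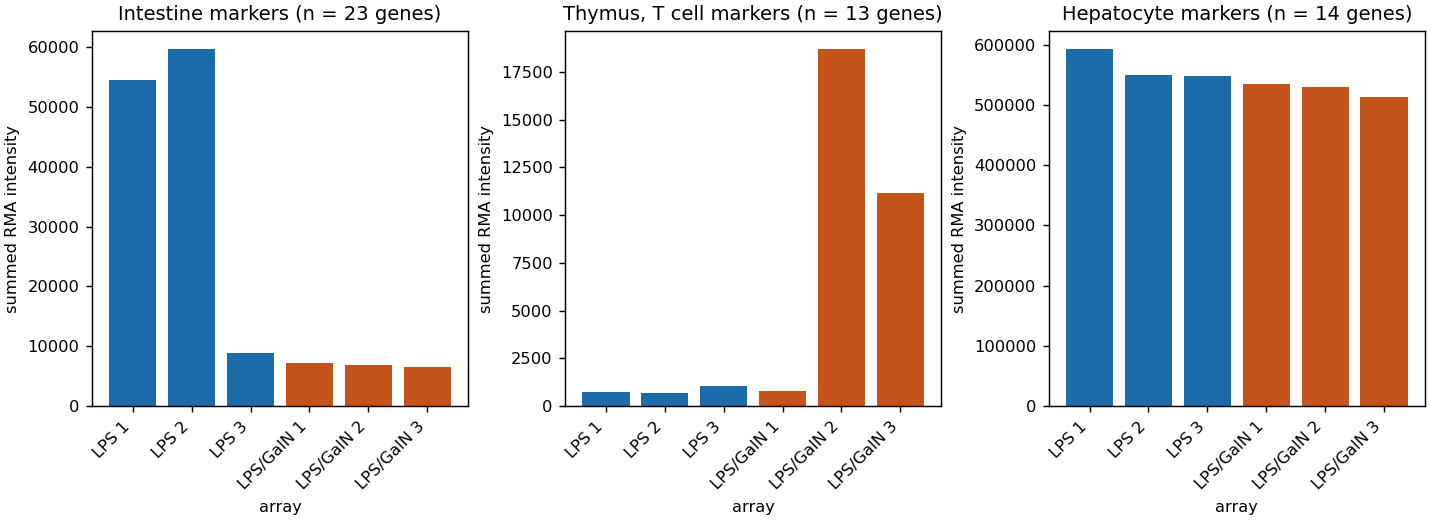
Summed RMA intensity of listed markers on each of the 6 arrays, 1 bar per mouse, for intestine, thymus and T cells, and hepatocytes, with blue for LPS and orange for LPS/GalN. The intestine sum is 54600 and 59720 in LPS mice 1 and 2, the thymus sum is 18700 and 11170 in LPS/GalN mice 2 and 3, and the hepatocyte sum stays between 513200 and 593300.

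Few P450 transcripts differed past the threshold after GalN was added. Of the 91 genes, 0 rose and 1, Cyp2j9, fell. Over all features 3.65% were called (0.616% higher and 3.04% lower), so the P450 count was not above that background. Signal lay above the random probes on all 6 arrays in 69 of the 91 genes, and on at least 1 array in each of the others. At an unadjusted p under 0.05, 13 P450 genes were higher and 5 lower, against 8.47% and 9.07% of all features. In this bulk RNA, fewer cells of a type and less RNA per cell cannot be told apart.

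The uncalled differences leaned towards higher values in LPS/GalN. Targets of related genes may share signal, which was not tested, so the counts are not of independent genes. A positive difference was seen in 60 of the 91 genes (65.9%) against 54.8% of all features, and the median difference was 0.23 against 0.05. In 26 genes (28.6%) each LPS/GalN array exceeded each LPS array, and in 4 (4.40%) each was below. Over all features these shares were 12.9% and 11.1%. By level, of the 28 P450 genes with a mean of 12 or more, 25 were positive (median 0.29), against 72.6% of the 1573 features at that level, whose median was 0.16, and 11 (39.3%) had groups apart upward against 33.7%. Of the 26 between 8 and 12, 15 were positive (median 0.37), against 59.6% of the 7878 features there, whose median was 0.12. In 10 of these P450 genes (38.5%) groups were apart upward, against 23.9% of the features. Of the 37 below 8, 19 were positive (median 0.03), against 52.4% of the 27581 features there. Groups were apart upward in 5 of these P450 genes (13.5%), against 8.56% of the features.

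By family, the median difference was 0.15 in family 2, 0.44 in family 3, 0.28 in family 4 and -0.05 in the others. Positive members numbered 28 of 42, 7 of 8, 14 of 18 and 9 of 20 in that order. No median is read from the 3 genes of family 1, since the middle gene, Cyp1a1, was near background. Without LPS mice 1 and 2 the medians of families 2, 3 and 4 were 0.16, 0.45 and 0.42. Without LPS/GalN mice 2 and 3 they were 0.30, 0.52 and 0.41, and that of all 91 genes was 0.32.

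**Figure D2:**
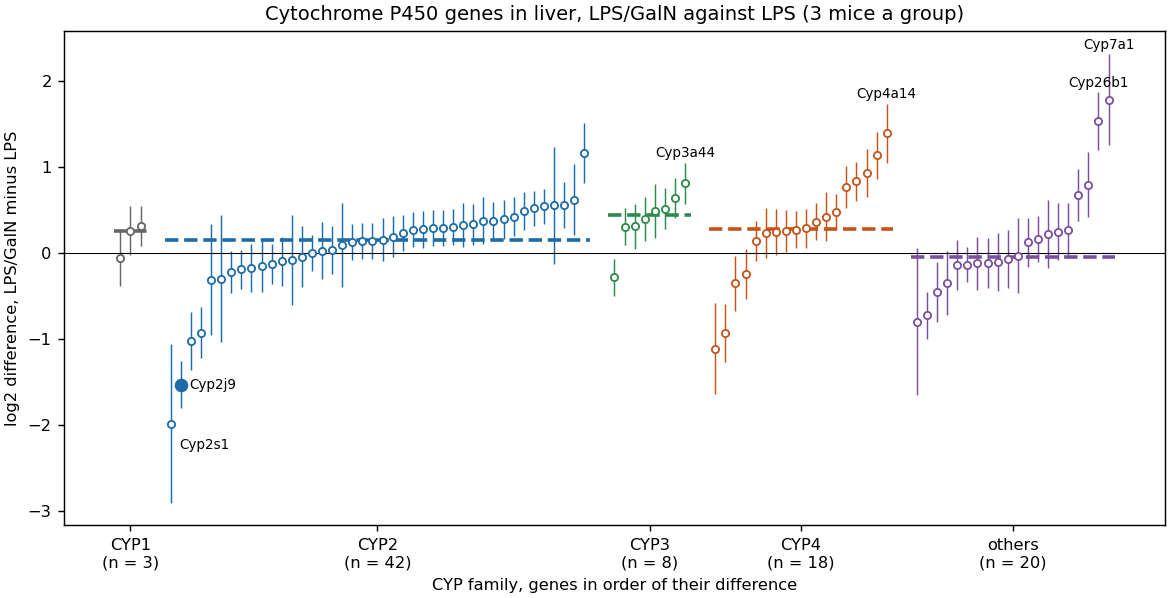
Log2 difference (LPS/GalN minus LPS, 3 mice a group) of each of the 91 P450 genes, ordered within CYP family, with bars of 1 standard error from the limma fit and dashed lines at family medians. Cyp2j9 is the filled point, the one gene past the threshold, and the medians of families 3 and 4 are 0.44 and 0.28.

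Cyp2j9 was the P450 gene that fell. It encodes an arachidonic acid hydroxylase described mainly in brain, and it lies at 96235312 to 96258100 on chromosome 4 in the mm9 coordinates of the files. Its level was 9.61, 8.80 and 9.03 in the LPS mice and 7.75, 7.70 and 7.38 in the LPS/GalN mice. The groups did not overlap, and each LPS/GalN mouse was more than 1 log2 unit below the lowest LPS mouse. Cyp2j9 fell by 1.53 ± 0.28 on the log2 scale, a 2.89-fold lower level (limma, adjusted p = 0.0216). A dimmer second target of the gene read -1.20 (adjusted p = 0.132). Without LPS mice 1 and 2 the difference was -1.41, and without LPS/GalN mice 2 and 3 it was -1.39. The call itself was lost without LPS mouse 1 (-1.30, adjusted p = 0.0722), LPS/GalN mouse 2 (-1.58, adjusted p = 0.0692) or LPS/GalN mouse 3 (-1.42, adjusted p = 0.0795).

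The other 7 Cyp2j genes, mostly arachidonic acid epoxygenases and their relatives in the same cluster, did not pass. Their differences ran from -0.22 (Cyp2j6) to 0.14 (Cyp2j5), with -0.19 in Cyp2j12, -0.15 in Cyp2j8, -0.10 in Cyp2j13, -0.04 in Cyp2j11 and 0.04 in Cyp2j7. Cyp2j5, an epoxygenase of liver and kidney, read 12.92, 12.92 and 13.07 in the LPS mice and 13.12, 12.94 and 13.27 in the LPS/GalN mice. These ranges overlapped, and its 95% interval of -0.35 to 0.63 excludes a fall as large as that of Cyp2j9. Of the 8 Cyp2j genes, 4 were above background on all 6 arrays.

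The Cyp4a genes had higher mean levels in LPS/GalN, as did the Cyp2d genes below. They encode omega-hydroxylases of fatty acids, and Cyp4a10 and Cyp4a14 are standard targets of the receptor PPAR alpha. All 9 measured members were positive, with a median of 0.77 and a range of 0.24 to 1.40, and in 5 each LPS/GalN mouse exceeded each LPS mouse, against 12.9% of all features, 23.9% of those with a mean between 8 and 12 and 33.7% of brighter ones. None passed the adjusted threshold, and 5 had an unadjusted p under 0.05. The 250 bases before the RefSeq start (GRCm38.p6) are shown for Cyp4a30b and Cyp4a32, since these are the members with the smallest p for which the reference table held a promoter, and for Cyp2j9 and Cyp26b1 as the genes with the smallest p of family 2 and of the other families. Capitals mark matches on either strand to TATAAA (the TATA box), AGGTCA (the nuclear receptor half-site), the DR1 repeat, which is that half-site written again after 1 spacer base, and TTGCNNAA (a C/EBP-type motif).
Cyp4a30b, chr4:115452354-115452603, plus strand: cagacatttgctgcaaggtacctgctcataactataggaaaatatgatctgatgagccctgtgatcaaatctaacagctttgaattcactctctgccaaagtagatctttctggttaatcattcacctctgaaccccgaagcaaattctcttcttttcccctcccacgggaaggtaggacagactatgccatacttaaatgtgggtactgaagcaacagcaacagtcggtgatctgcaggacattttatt
Cyp4a32, chr4:115600688-115600937, plus strand: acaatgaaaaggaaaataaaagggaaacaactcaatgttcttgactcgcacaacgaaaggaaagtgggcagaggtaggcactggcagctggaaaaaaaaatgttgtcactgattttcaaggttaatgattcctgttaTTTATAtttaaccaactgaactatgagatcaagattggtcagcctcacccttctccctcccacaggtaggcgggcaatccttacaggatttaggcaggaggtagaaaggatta
Cyp2j9, chr4:96591486-96591735, minus strand: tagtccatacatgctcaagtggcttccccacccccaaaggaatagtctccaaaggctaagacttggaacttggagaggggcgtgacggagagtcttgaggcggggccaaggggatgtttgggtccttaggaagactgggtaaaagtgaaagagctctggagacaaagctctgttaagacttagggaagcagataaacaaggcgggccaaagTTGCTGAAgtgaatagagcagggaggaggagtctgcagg
Cyp26b1, chr6:84593811-84594060, minus strand: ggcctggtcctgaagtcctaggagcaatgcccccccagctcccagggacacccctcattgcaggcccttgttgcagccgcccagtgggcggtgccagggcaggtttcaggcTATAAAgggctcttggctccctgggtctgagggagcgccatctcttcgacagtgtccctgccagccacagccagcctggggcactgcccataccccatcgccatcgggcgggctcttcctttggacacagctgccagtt

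Neither Cyp4a window held an exact copy of the half-site or of the DR1 repeat, the form that PPAR alpha is known to bind. Among all 32851 promoter windows of this length in the table, 14% held AGGTCA, 12.4% TATAAA, 9.56% TTGCNNAA and 0.0335% the DR1 repeat. Cyp4a32 held 1 TATAAA match on the minus strand, beginning 113 bases before the start, and Cyp26b1 1 on the plus strand at 139 bases. Cyp2j9 held 1 TTGCNNAA match at 39 bases. The table held promoters for 67 of the 91 genes, in 76 windows, of which 25 contained TATAAA, 17 AGGTCA, 18 TTGCNNAA and 0 the DR1 repeat. An exact DR1 repeat is so rare that its absence from the Cyp4a windows carries no information. A match is a run of letters and not a bound site, and an absent match says nothing of inexact sites or of factors that bind elsewhere.

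Cyp4a14 read 11.91, 10.85 and 10.64 in the LPS mice and 12.61, 12.47 and 12.51 in the LPS/GalN mice. The 3 LPS/GalN mice lay within 0.13 of each other while the LPS mice spread over 1.27. The difference was 1.40 ± 0.34, a ratio of 2.63, with an adjusted p of 0.0740. Without LPS mouse 1 it was 1.78 and passed (adjusted p = 0.0210). Cyp4a10 read 12.99, 12.22 and 12.26 against 13.39, 13.59 and 13.28, a difference of 0.93 ± 0.27 (adjusted p = 0.126). In both genes LPS mouse 1 was the highest of its group and still below each LPS/GalN mouse.

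Cyp4a30b read 8.66, 8.02 and 8.05 in the LPS mice and 9.37, 9.66 and 9.12 in the LPS/GalN mice (1.14 ± 0.27, adjusted p = 0.0671). Cyp4a32 read 11.33, 10.98 and 11.47 against 12.21, 12.04 and 12.04 (0.84 ± 0.23, adjusted p = 0.102). Cyp4a31, the fifth name whose groups were apart, had a difference of 0.77 ± 0.24. The files place it on the same span as Cyp4a10, so the 9 Cyp4a names fill 8 placed loci. Members of this cluster are close copies of each other, and how far a target of one reads RNA of another was not tested. Cyp4a12a and Cyp4a12b, which are male-predominant in mouse liver, had smaller differences of 0.29 and 0.25 with overlapping groups. The pseudogene Cyp4a30-ps (0.42) and the dim Cyp4a29 (0.24) overlapped as well. Without LPS mice 1 and 2 all 9 differences stayed positive (median 0.63), as they did without LPS/GalN mice 2 and 3 (median 0.85). A spread model that lets the variance depend on intensity called Cyp4a10, Cyp4a14, Cyp4a30b, Cyp4a31 and Cyp4a32.

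**Figure D3:**
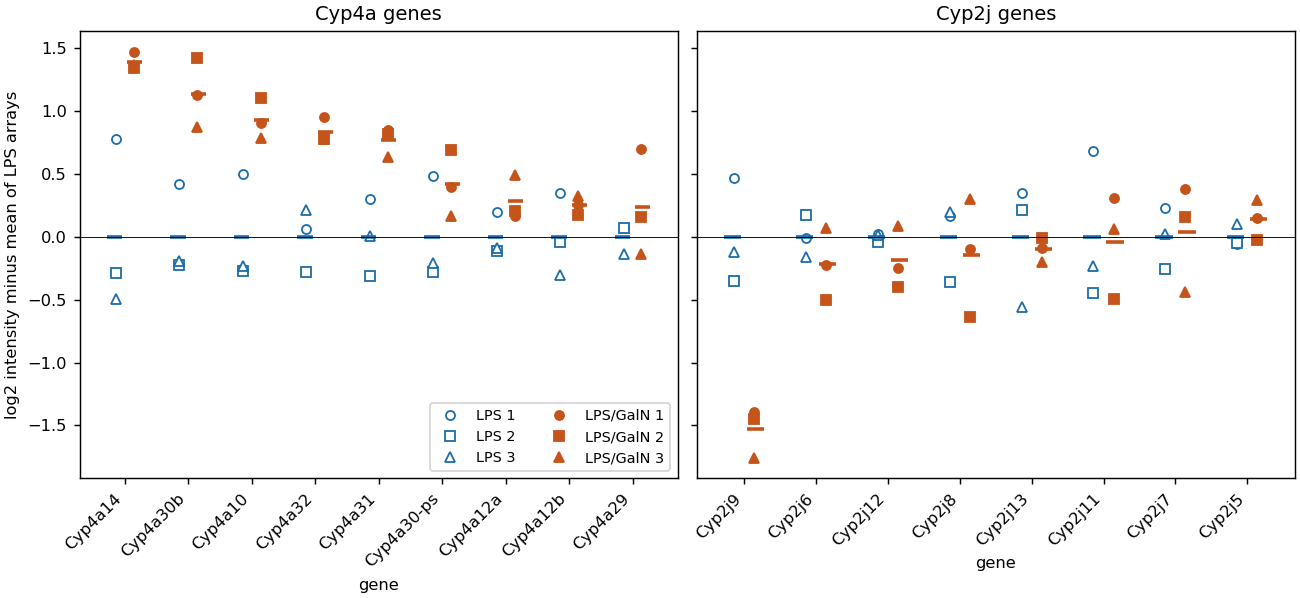
Log2 intensity on each array minus the gene's mean over the 3 LPS arrays, for the 9 Cyp4a genes and the 8 Cyp2j genes, with open blue symbols for LPS, filled orange symbols for LPS/GalN and short lines at group means. The LPS/GalN means of all Cyp4a genes lie above 0, up to 1.40 in Cyp4a14, and among the Cyp2j genes Cyp2j9 stands alone at -1.53.

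The rest of family 4 showed no common direction. The 8 Cyp4f genes, which hydroxylate long-chain fatty acids and leukotrienes, ranged from -1.11 (Cyp4f40) to 0.48 (Cyp4f15), and 5 were positive. Cyp4f15 read 10.86, 11.05 and 10.96 in the LPS mice and 11.47, 11.40 and 11.44 in the LPS/GalN mice. The groups were apart, with a small difference of 0.48 ± 0.20 (limma, adjusted p = 0.275). Cyp4f13 was the other Cyp4f gene with each LPS/GalN mouse above each LPS mouse, and its means differed by 0.36. Cyp4f14 (0.27), Cyp4f18 (0.23), Cyp4f37 (0.14) and Cyp4f39 (-0.35) overlapped. Cyp4b1, the remaining member of family 4, read -0.24 ± 0.29.

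Family 3 holds Cyp3a11, the main drug-metabolising CYP3A enzyme of mouse liver and the standard target of the pregnane X receptor. Cyp3a11 read 14.96, 14.67 and 14.69 in the LPS mice and 15.15, 15.15 and 14.92 in the LPS/GalN mice, near the top of the intensity scale. The groups overlapped, and its difference was 0.31 ± 0.22 (95% interval -0.20 to 0.81, adjusted p = 0.527). Its relatives leaned the same way, except Cyp3a13 at -0.28 ± 0.22. How far the targets of these related genes read RNA of each other was not tested.

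Cyp3a44 had the largest difference of the family, with 12.27, 11.90 and 12.21 in the LPS mice and 13.19, 12.95 and 12.68 in the LPS/GalN mice. It is described as female-predominant, and whether its signal in these males includes RNA of other Cyp3a genes was not tested. The groups were apart (0.81 ± 0.24, a ratio of 1.76, adjusted p = 0.127). Cyp3a57 was also apart, at 8.76, 8.34 and 8.45 against 9.02, 9.10 and 9.37 (0.64 ± 0.23, adjusted p = 0.200). Cyp3a16 (0.52 ± 0.24), Cyp3a59 (0.49 ± 0.32), Cyp3a25 (0.40 ± 0.26) and Cyp3a41b (0.31 ± 0.26) overlapped. All 8 genes of the family were above background on all arrays.

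Family 1 did not separate the groups. Cyp1a2, a constitutive liver enzyme of caffeine and aromatic amine oxidation, read 14.10, 14.54 and 14.17 in the LPS mice and 14.43, 14.58 and 14.76 in the LPS/GalN mice (0.32 ± 0.23, adjusted p = 0.535). Cyp1a1, the inducible partner that responds to aryl hydrocarbon receptor ligands, was not above background on any LPS array and on 1 LPS/GalN array, so no fold is given. Cyp1b1, an estrogen hydroxylase found largely outside the liver, read 5.30 to 6.21 over the 6 arrays with a difference of -0.06 ± 0.32.

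Family 2 is the largest of the families. Cyp2e1, the ethanol- and acetaminophen-oxidising enzyme of hepatocytes around the central vein, read 15.45, 15.35 and 15.50 in the LPS mice and 15.33, 15.53 and 15.44 in the LPS/GalN mice. These values differed by 0.00 ± 0.21 (95% interval -0.47 to 0.47), and they lie near the top of the scale, where differences can be compressed. For comparison, 9 markers of that zone outside the P450 genes had a median difference of 0.17, and 11 markers of the opposite, periportal zone had -0.01.

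Cyp2d genes, a cluster related to the human drug-metabolising CYP2D6, were positive in 8 of 8 (median 0.35), and 4 had groups apart upward. Whether targets of this cluster read RNA of each other was not tested, so the 8 are not taken as independent. Over all features, 54.8% were positive and 12.9% apart upward. The Cyp2d genes had means above 8. Among features with a mean between 8 and 12, 59.6% were positive and 23.9% apart upward, and among brighter ones 72.6% and 33.7%. Cyp2d13, which RefSeq classes as a transcribed pseudogene, had the largest value, at 11.13, 10.66 and 11.90 against 12.74, 12.19 and 12.24 in the LPS/GalN mice. The groups were 0.29 apart at their nearest points (1.16 ± 0.35, a ratio of 2.24, adjusted p = 0.132). Without LPS mice 1 and 2 the Cyp2d13 difference was 0.49, and without LPS mouse 3 it was 1.50 and passed (adjusted p = 0.0474). Another target described as similar to rat P450 2D3 carries a clone name that RefSeq lists as a synonym of Cyp2d13. It read 6.23, 7.08 and 8.47 against 7.60, 7.03 and 6.92, with no separation, and was not counted among the 8 Cyp2d genes. Cyp2d9, Cyp2d34 and Cyp2d40 were apart upward, with smaller differences of 0.29, 0.42 and 0.39. Cyp2d10, Cyp2d11, Cyp2d22 and Cyp2d26 overlapped, at 0.13 to 0.38, and Cyp2d26 lies near the top of the scale.

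Cyp2c genes, many of them epoxygenases of arachidonic acid, were positive in 9 of 11, and 6 had groups apart upward. Those 6 had a mean of 12 or more, where 72.6% of all features were positive and 33.7% apart upward. At any level, 54.8% of features were positive and 12.9% apart upward. Signal shared between targets of the related Cyp2c genes was not tested either, so their counts are not of independent genes. Cyp2c37 read 12.81, 12.70 and 12.65 in the LPS mice and 13.21, 13.31 and 13.27 in the LPS/GalN mice (0.54 ± 0.20, adjusted p = 0.218). Its values lay within 0.16 of each other in the LPS group and 0.10 in the LPS/GalN group. Cyp2c23 was similar, at 14.37, 14.27 and 14.17 against 14.77, 14.73 and 14.88 (0.52 ± 0.21, adjusted p = 0.244). Both passed when the variance was modelled on intensity. Cyp2c29 (0.28), Cyp2c50 (0.31), Cyp2c67 (0.29) and Cyp2c69 (0.14) were the others apart upward. Cyp2c55 (0.62), Cyp2c68 (0.19), Cyp2c70 (-0.13) and the dim Cyp2c53-ps (0.03) overlapped. Cyp2a12 and Cyp2f2, oxidases of steroids and of naphthalene, were also apart, with differences of 0.38 and 0.27, while Cyp2a4 overlapped at 0.33. Of the dimmer family 2 genes, Cyp2t4 was apart (0.56 ± 0.27), and Cyp2g1 (0.09) and Cyp2w1 (0.16) overlapped, Cyp2w1 being above background on 0 LPS arrays and 1 LPS/GalN array.

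Cyp2u1, a hydroxylase of long-chain fatty acids, was one of the 4 P450 genes with each LPS/GalN mouse below each LPS mouse. It read 8.33, 8.60 and 7.78 against 7.004, 7.65 and 7.29 (-0.93 ± 0.29, adjusted p = 0.150). The difference was -0.47 without LPS mice 1 and 2, and -1.23 without LPS/GalN mice 2 and 3. A dimmer second target of the same gene differed by 0.90 in the opposite direction, so its direction depends on the target. Cyp2u1 was the one gene among the 17 with several targets where targets disagreed in sign at an unadjusted p under 0.05.

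The Cyp2b genes varied more between mice than between groups. Cyp2b10, the standard target of the receptor CAR, read 8.09, 8.35 and 8.61 in the LPS mice and 9.41, 6.47 and 8.24 in the LPS/GalN mice. Cyp2b9 read 6.99, 7.56 and 9.37 against 9.49, 8.62 and 7.46. The highest and the lowest Cyp2b10 values were both in LPS/GalN mice, and the Cyp2b9 values interleaved. The differences were -0.31 ± 0.64 and 0.55 ± 0.68, with 95% intervals of -1.79 to 1.17 and -1.02 to 2.13. Cyp2b13 ran from 4.45 to 7.34 (-0.30 ± 0.74), and the dim Cyp2b19 differed by -0.17 ± 0.28.

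Some P450 genes were high in LPS mice 1 and 2, the livers with high intestine markers. These genes were chosen after their values were seen. Cyp2s1, a P450 of epithelia such as gut and airway, read 9.93, 10.00 and 6.21 in the LPS mice and 7.20, 6.62 and 6.36 in the LPS/GalN mice. LPS mouse 3 was the lowest of the 6, so the difference of -1.98 ± 0.92 (adjusted p = 0.318) became 0.52 without LPS mice 1 and 2. Without LPS mouse 3 it was -3.24 and passed (adjusted p = 0.00328). Its other 2 targets, near background, differed by -0.04 and -0.03.

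Cyp4f40 had the same arrangement, with 7.01, 7.03 and 5.04 against 4.91, 5.68 and 5.15. Its difference of -1.11 ± 0.53 became 0.21 without LPS mice 1 and 2, and -1.77 without LPS mouse 3, when it passed (adjusted p = 0.0261). Cyp4f16 read 9.22, 9.59 and 8.40 against 8.42, 8.15 and 7.85, and -0.93 became -0.26. Cyp2c65, described in stomach and intestine, read 5.70, 6.13 and 5.42 against 4.30, 5.37 and 4.52 (-1.02 ± 0.34, adjusted p = 0.165). Its groups were apart, LPS mouse 3 included. It was above background on all 3 LPS arrays and 1 of 3 LPS/GalN arrays, and -0.69 remained without LPS mice 1 and 2. The summed intestine markers were 54600 and 59720 in these mice against 6456 to 8820 in the others, and their part in these 4 genes was not tested.

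Bile acid and sterol enzymes showed no common direction. Cyp7a1, the rate-limiting enzyme of bile acid synthesis from cholesterol, read 5.79, 6.38 and 8.05 in the LPS mice and 8.50, 8.23 and 8.85 in the LPS/GalN mice. LPS mouse 3 came within 0.17 of the lowest LPS/GalN mouse, and the LPS mice spread over 2.26 against 0.62 in the LPS/GalN mice. The difference of 1.78 ± 0.53, a ratio of 3.45, did not pass (adjusted p = 0.131). Without LPS mice 1 and 2, the livers with high intestine markers, it was 0.47, and without LPS mouse 3 it was 2.44 and passed (adjusted p = 0.00893).

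Cyp7b1, the oxysterol 7-alpha-hydroxylase of the alternative bile acid pathway, went the other way. It read 10.68, 11.27 and 10.99 in the LPS mice and 9.98, 10.16 and 10.63 in the LPS/GalN mice (-0.72 ± 0.27, adjusted p = 0.216). The groups were 0.05 apart. Cyp8b1, which sets the share of cholic acid, read 10.79, 11.50 and 12.05 against 11.32, 10.58 and 11.39 (-0.35 ± 0.37). Cyp27a1, the mitochondrial sterol 27-hydroxylase, was the steadiest of the list at 13.75 to 14.05 on all arrays (-0.14 ± 0.21).

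Cyp39a1, which acts on 24-hydroxycholesterol, differed by 0.26 ± 0.32, and Cyp51, the lanosterol demethylase of cholesterol synthesis, by -0.14 ± 0.29. Cyp46a1, the cholesterol 24-hydroxylase of brain, read 4.41, 5.67 and 4.46 against 5.39, 6.02 and 5.52 and was above background in 1 LPS mouse (0.79 ± 0.38, adjusted p = 0.331). Of the 7 genes in this list, 3 were positive, 4 negative and 0 called.

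**Figure D4:**
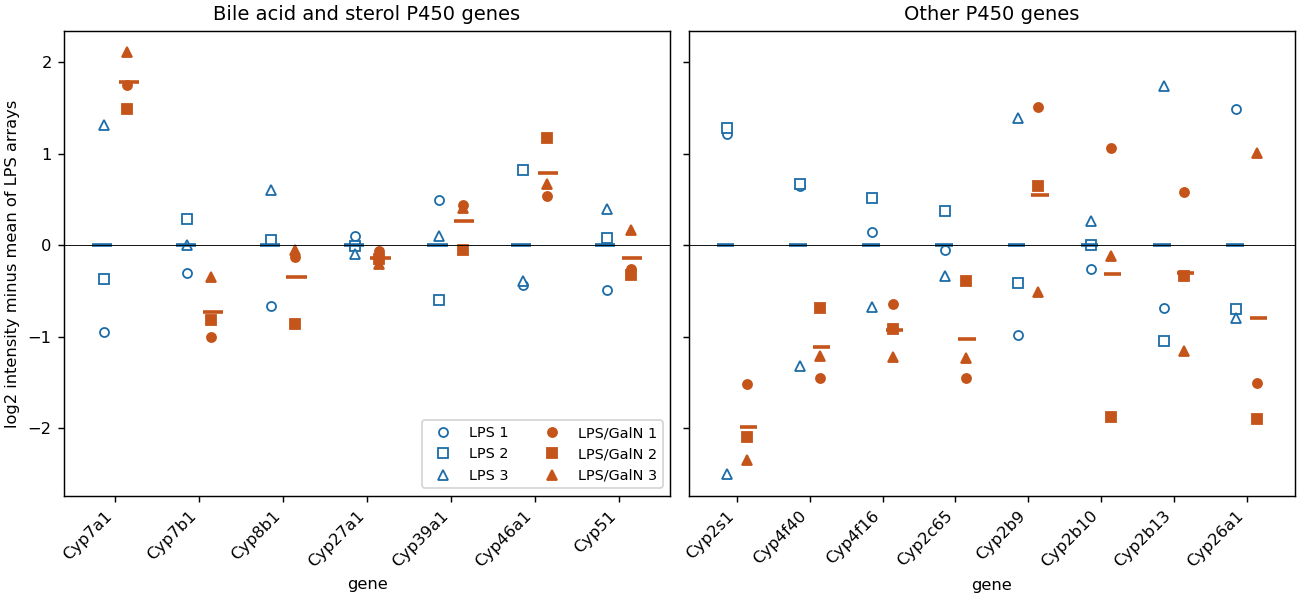
Log2 intensity on each array minus the gene's mean over the 3 LPS arrays, for the 7 bile acid and sterol P450 genes and for 8 other P450 genes, with open blue symbols for LPS, filled orange symbols for LPS/GalN and short lines at group means. LPS mouse 3 lies near the LPS/GalN mice in Cyp7a1, Cyp2s1 and Cyp4f40, and the Cyp2b genes overlap between groups.

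Of the retinoic acid, vitamin D and steroid hormone genes 11 of 12 were found, 4 were positive, and 0 were called. Cyp26b1, which degrades retinoic acid, came closest to the threshold of all upward genes. It read 4.75, 4.96 and 5.55 in the LPS mice and 7.17, 6.55 and 6.14 in the LPS/GalN mice. It was above background in 1 of 3 LPS mice and in all 3 LPS/GalN mice. The difference was 1.53 ± 0.34, partly against values at background, with an adjusted p of 0.0505. Over 16 alternative settings it ranged from 0.98 to 2.08 and passed in 6, one of them without LPS mouse 3 (1.76, adjusted p = 0.0429).

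Cyp26a1, the retinoic acid hydroxylase usually described as inducible in liver, varied widely between mice, with 9.12, 6.94 and 6.83 against 6.12, 5.73 and 8.64 (-0.80 ± 0.85). Cyp2r1, a vitamin D 25-hydroxylase, read 5.09, 5.23 and 5.29 against 5.53, 5.61 and 5.93 (0.49 ± 0.22, adjusted p = 0.304). Cyp19a1, the aromatase of estrogen synthesis, was near background at 5.19, 5.45 and 4.38 against 5.59, 5.66 and 5.79. The adrenal and gonadal genes Cyp11a1, Cyp11b2, Cyp17a1 and Cyp21a1 differed by -0.12 to -0.03 with overlapping groups, as did Cyp24a1 (-0.45), Cyp27b1 (-0.10) and Cyp26c1 (0.22). The remaining genes outside families 1 to 4 were Cyp20a1, a P450 of unknown substrate (0.12 ± 0.29) and a hypothetical P450 (0.16 ± 0.27). Both overlapped between groups, as did the target similar to P450PB-1 (0.25 ± 0.33), which was counted here by its description but lies on Cyp2r1.

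Among 18 genes for the proteins that feed electrons and heme to P450 enzymes, 0 rose and 1 fell, and 15 were positive. Over all features 0.616% were called higher, 3.04% were called lower and 54.8% were positive. The positive share was 59.6% among features with a mean between 8 and 12 and 72.6% among brighter ones. Por, the oxidoreductase that serves the microsomal P450 enzymes, read 13.75, 13.88 and 13.15 in the LPS mice and 13.52, 13.64 and 13.57 in the LPS/GalN mice (-0.02 ± 0.26). Alas1, the first enzyme of heme synthesis, differed by -0.06 ± 0.36. Cpox, a later enzyme of that pathway, read 11.90, 11.75 and 12.27 against 12.72, 12.72 and 12.62 (0.71 ± 0.23, adjusted p = 0.155), and the electron carrier Cyb5b differed by 0.41 ± 0.21. The gene that fell was Hmox1, the inducible enzyme that breaks heme down, at 13.16, 12.93 and 12.70 in the LPS mice and 11.48, 10.78 and 10.51 in the LPS/GalN mice. Hmox1 fell by 2.01 ± 0.30 on the log2 scale, 4.03-fold lower (adjusted p = 0.00924). Hmox1 passed with any 1 mouse left out, and read -1.78 without LPS mice 1 and 2 and -1.45 without LPS/GalN mice 2 and 3.

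Receptors and transcription factors known to control P450 genes had 4 of 21 genes called lower, where 3.04% of all features were, with 0 called higher and a median of -0.58. Foxa3, a liver-enriched forkhead factor, read 11.77, 11.998 and 11.86 in the LPS mice and 10.29, 10.33 and 9.81 in the LPS/GalN mice, and fell by 1.73 ± 0.24 (adjusted p = 0.00615). Nr5a2, a nuclear receptor that activates Cyp7a1 and Cyp8b1, read 11.45, 10.90 and 10.92 against 9.58, 8.49 and 8.71, and fell by 2.16 ± 0.33 (adjusted p = 0.0104). Foxa1 fell by 1.97 ± 0.36 (adjusted p = 0.0243), and Nfe2l2, the regulator of antioxidant genes, by 1.19 ± 0.22 (adjusted p = 0.0258). In these 4 genes each LPS/GalN mouse was below each LPS mouse. Foxa3 passed with any 1 mouse left out. Nr5a2 missed the threshold without LPS mouse 1 or LPS/GalN mouse 3 (adjusted p up to 0.0520). Foxa1 and Nfe2l2 passed only without LPS/GalN mouse 1 and otherwise missed it, with adjusted p up to 0.101 and 0.0988 and differences of at most -1.66 and -1.07.

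The xenobiotic and fatty acid receptors did not pass. Cebpa, a liver-enriched factor for many P450 promoters, read 13.24, 13.10 and 13.46 against 12.56, 11.97 and 11.41 (-1.29 ± 0.32, adjusted p = 0.0750). Ahr, the receptor for Cyp1 inducers, differed by -1.14 ± 0.31 (adjusted p = 0.0999). Ppara, the receptor behind Cyp4a10 and Cyp4a14, differed by -0.45 ± 0.29. Nr1i3 (CAR) and Nr1i2 (the pregnane X receptor) differed by 0.67 ± 0.29 and 0.38 ± 0.41, and Hnf4a, a master factor of hepatocytes, by 0.42 ± 0.23.

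**Figure D5:**
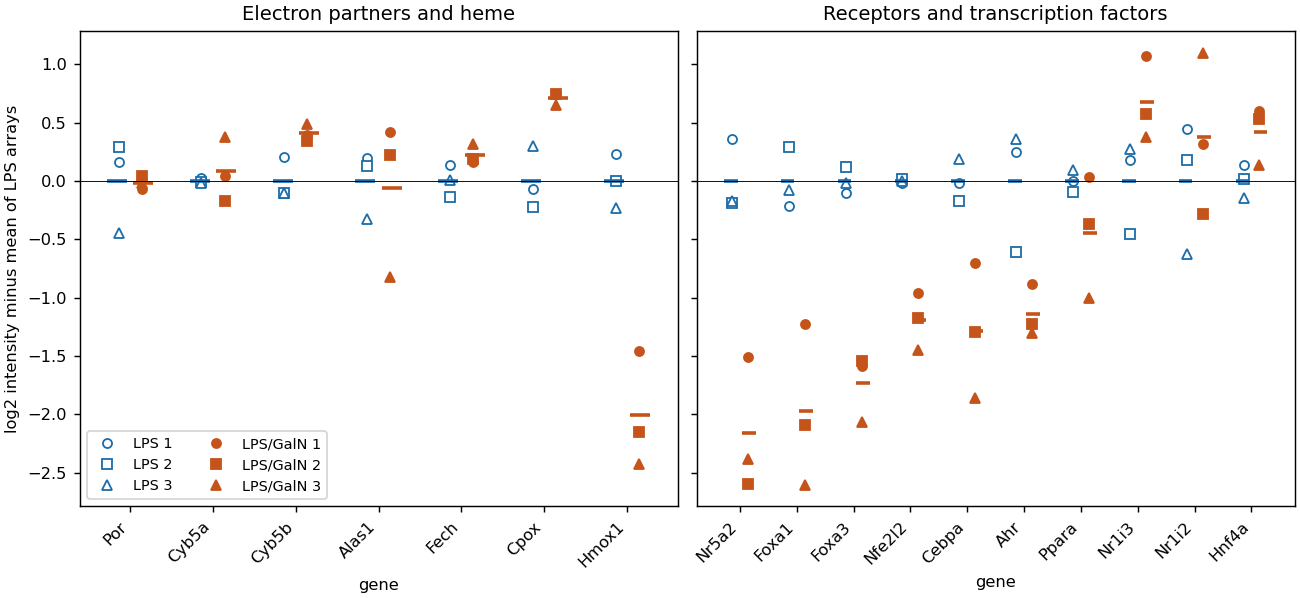
Log2 intensity on each array minus the gene's mean over the 3 LPS arrays for 7 electron partner and heme genes and 10 receptors and factors, with open blue symbols for LPS, filled orange symbols for LPS/GalN and short lines at group means. Hmox1, Nr5a2, Foxa1, Foxa3 and Nfe2l2 are the genes past the threshold, while Por stays at -0.02.

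Other targets of the same receptors gave a reference for the P450 values. Of 15 PPAR alpha targets outside the P450 genes, 0 rose, 1 fell and the median was 0.04. Among all features 3.04% were called lower and the median was 0.05. The one that fell was Angptl4, an inhibitor of lipoprotein lipase, at 11.35, 11.08 and 10.47 against 9.28, 8.68 and 8.80 (fell by 2.05 ± 0.30, adjusted p = 0.00865). Ehhadh, a peroxisomal oxidation enzyme, differed by 0.70 ± 0.24 with groups apart, and Acaa1b, another, by 0.32 ± 0.20. Cpt1a, which admits fatty acids to mitochondria, differed by -0.28.

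Of 6 aryl hydrocarbon receptor targets outside the P450 genes, 1 fell and 0 rose, where 3.04% of all features were called lower. Tiparp, a poly(ADP-ribose) polymerase that represses the receptor, read 9.80, 9.91 and 10.21 in the LPS mice and 5.31, 6.17 and 5.53 in the LPS/GalN mice, and fell by 4.30 ± 0.28 (adjusted p = 0.000342). Angptl4 and Tiparp passed with any 1 mouse left out. Ugt1a6a, a glucuronosyltransferase of the same list, differed by 0.28 ± 0.22, and Cyp1a2 by 0.32 in the same livers.

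Of 12 bile acid genes outside the P450 genes, 0 rose and 1 fell, where 3.04% of all features were called lower. Slc51b, a basolateral bile acid exporter, read 8.93, 8.52 and 7.08 against 6.13, 5.97 and 6.24, and fell by 2.06 ± 0.45 (adjusted p = 0.0476). Baat, which conjugates bile acids with amino acids, read 10.77, 10.45 and 10.75 against 9.72, 9.30 and 9.82 (-1.04 ± 0.24, adjusted p = 0.0601). The canalicular exporters Abcb11 (0.44 ± 0.21) and Abcb4 (0.65 ± 0.22) were apart upward and not called. Slc51b is also expressed in gut, and it was highest in LPS mice 1 and 2. Without them it read -0.96, and it passed only without LPS mouse 3 when single mice were left out (adjusted p up to 0.161 otherwise).

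The absence of upward calls depended on the settings, among them how the spread was modelled. With variance allowed to follow intensity and outlying genes down-weighted, 12 P450 genes rose and 2 fell, against 2.45% and 4.47% of all features. Those that rose were the 5 Cyp4a genes named above, Cyp3a16, Cyp3a44, Cyp2a12, Cyp2c23, Cyp2c37, Cyp26b1 and Cyp7a1. Cyp7b1 and Cyp2j9 fell. In the authors' value table, which leaves out dim targets, 6 of 65 P450 genes were higher (Cyp3a44 and the same 5 Cyp4a genes) and 1, Cyp2j9, lower, against 4.3% and 9.14% of its 15200 features.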

How the data were processed

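Liver total RNA of 6 mice was hybridised to 6 single-colour NimbleGen arrays (Cy3), 1 mouse per array. The authors deposited RMA intensity on a linear scale, per the submitters' processing notes and the file headers. RMA corrects background, normalizes the arrays to a common distribution and summarises the probes of a target, so a change in total RNA would not be seen. The version of RMA is not stated. By the labels, each gene had 3 probe pairs. The depth of such data is signal over background. A deposited row of 5000 random probes, at an intensity of 31.3 to 34.7, served as background, and array medians were 60.4 to 63.1. Intensities at log2 of 15 or more were taken as near the top of the scale. The number of arrays limits the precision.

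Intensities were converted to log2. Targets were joined by symbol, or by full name and chromosome, and of several targets the brightest on average was kept. Names came from the files' descriptions, a RefSeq table (GRCm38.p6, names, classes and promoters only) and a hand-made name table. Gene coordinates in the files are mm9, and probe positions were not examined. Of 220 listed genes 200 were found. The other 20 are not analysed here.

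Groups come from the labelled treatment. They were compared with limma 3.58.1 in R 4.3.3 (lmFit and eBayes, 4.04 prior degrees of freedom, no filter, two-sided), with Benjamini-Hochberg adjustment over 37032 features and a threshold of 0.05. Steps were tested on simulated data. P450 genes named by rule were the markers Cyp7a1, Cyp2e1 and Cyp3a11, those past the threshold, up to 4 with the smallest p in each family, and the bile acid and sterol list. From other lists the rule took genes past the threshold and up to 2 with the smallest p. The other genes named were chosen after their values were seen. The members and lists were chosen with earlier results of these data known. Tried as alternatives were 17 settings.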

Additional observations from a re-analysis of the deposited data

How the results depend on the processing

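Replicate numbers did not pair the mice (correlations of same-numbered deviations 0.002, -0.004 and 0.026). With a replicate block, 0 P450 genes were higher and 1 lower, 964 features were called in place of 1353, and partner and regulator genes called lower were 3 in place of 5. P450 genes called higher, 0 in the comparison as reported, numbered 1 with all targets kept, with dim features left out or with the mean of a gene's targets, 4 with log2(intensity + 32), 6 in the value table, 12 with the intensity-dependent spread, and 0 to 3 with 1 array left out. Those called lower, 1 as reported, numbered 0 without LPS mice 1 and 2 or without LPS/GalN mice 2 and 3, 2 with the intensity-dependent spread, and 0 to 3 with 1 array left out. Partner and regulator genes called higher were 1 in the value table and 2 with the intensity-dependent spread. Those called lower, 5 as reported, were 6 in the value table, 8 with the intensity-dependent spread and 2 to 7 with 1 array left out. The fits without LPS mice 1 and 2 and without LPS/GalN mice 2 and 3 each leave 1 array in a group, which is assumed to vary like the others. Medians moved to 0.316 for all P450 genes and 0.298 for family 2 without LPS/GalN mice 2 and 3, to 0.274 for family 2 in the value table, and to 0.418 for family 4 without LPS mice 1 and 2. With 1 array left out the median ran from 0.139 to 0.234 in family 2. In family 1 it ran from 0.00339 to 0.324, but it is not read, since Cyp1a1 was near background. Cyp2e1 read -0.0656 without LPS mice 1 and 2, -0.103 without LPS/GalN mice 2 and 3 and -0.0374 with centred arrays. With 1 array left out Cyp2e1 ran from -0.048 to 0.0523, Cyp1a1 from -3.7e-05 to 0.45, Cyp1b1 from -0.305 to 0.161, Cyp39a1 from -0.0355 to 0.513 and Cyp51 from -0.382 to 0.0626. Why these values moved was not tested, beyond the fewer arrays or features in the settings that leave some out. Genes near the random probes, such as Cyp1a1, Cyp2w1 and Cyp2j13, have too little signal over background to show a difference.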
